A study of Mus musculus with 2 samples.

Results

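The genes that detect RNA and DNA in the cytosol, and those that pass the signal on, were followed by RNA sequencing in 661W, an immortalized line of mouse cone photoreceptors that arose from a retinal tumor under SV40 T antigen. The 10 genes were chosen by symbol and were the RNA sensors Ifih1, Ddx58, Dhx58 and Ddx60, the sensor of left-handed nucleic acids Zbp1, the DNA sensor Mb21d1, the adaptors Mavs and Tmem173, the ubiquitin ligase Trim25 and the kinase Tbk1. All 10 were among the 13281 genes with values. One group was 661W cells stably carrying the empty control vector, with 1 library, and the other was 661W cells stably expressing 3xF-TRPM1, human TRPM1 with a FLAG tag at its N-terminus, also with 1 library. Both populations came from retroviral infection of the same line and, by the methods, stable populations were kept under puromycin selection. The labels give normal culture and no further treatment. The human channel gene is thus driven by a vector and not by its own promoter, and any other difference between the 2 populations, such as passage or drug selection, cannot be told apart from TRPM1. The question put to these genes was whether they changed together with the interferon-stimulated genes that stood higher in 3xF-TRPM1 cells.

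With 1 library per group there is no replicate error, and every difference below is between these libraries. Levels are in CPM, read counts that the authors scaled per library and not to gene length. The values correspond to library sizes of 16728172 reads for the empty vector and 17639743 for 3xF-TRPM1, and the latter is below the reads listed for that library, so they are adjusted sizes whose derivation no source used here states. The reads behind them were 16404444 for the empty vector and 17869838 for 3xF-TRPM1 over the genes with values. A fold change was computed as 3xF-TRPM1 over empty vector after adding 0.5 CPM to each value, which understates the change of low genes, and is given on the log2 scale. Its 95% interval is the exact binomial interval of the reads, which covers counting error only. The interval was taken without the added 0.5 CPM, so for low genes it belongs to a slightly different value. The words higher and lower, used of counts of genes, mean a change of at least 1.5-fold whose interval excluded no change. Every gene with a value lay above 1 CPM in both libraries, so genes near zero in either could not be followed. Of 18 cone and rod photoreceptor markers only Gnat2 (2.57 and 2.49 CPM) and Pde6b (1.79 and 1.13 CPM) had values. The others were not analysed here. Of 18 markers of macrophages and other blood cells, which express many sensors strongly, only Cd68 and Cd14 had values, with sums of 15.9 and 9.07 CPM, and both were lower in 3xF-TRPM1 cells. The 17 fibroblast and matrix genes with values summed to 18181 CPM without and 27518 CPM with 3xF-TRPM1. Of these 17 genes, 8 (47.1%) were higher and 0 lower, where 3.91% of all genes were higher. Their median log2 fold change was 0.58, against 0.51 for the interferon-stimulated genes described below. The part of any cell type in the results below was not tested.

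Cells recognise viral or misplaced nucleic acids through proteins that bind them in the cytosol. RIG-I (Ddx58) and MDA5 (Ifih1) are helicases that bind RNA and then engage the mitochondrial adaptor MAVS, while cGAS (Mb21d1) binds DNA and makes a cyclic dinucleotide that activates STING (Tmem173) at the endoplasmic reticulum. Either adaptor recruits the kinase TBK1, which phosphorylates IRF3 and so starts transcription of type I interferon. Several of the sensor genes are themselves induced by interferon through transcription factors that bind a promoter element named ISRE, among them STAT2 and IRF9.

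All 10 genes had a log2 fold change above 0, where 6875 of all 13281 genes did. The 10 changes ran from 0.15 to 1.09, with a median of 0.27 against 0.0093 for all genes. Ifih1, Ddx58 and Ddx60 were higher at 1.5-fold and none was lower. This was 3 of 10 genes, or 30%, where 3.91% of all genes were higher and 3.07% were lower by the same rule. The 6 sensors had a median log2 fold change of 0.57, and the 4 adaptor, ligase and kinase genes one of 0.16, with 3 and 0 of them higher. Counting only whether the interval lay above no change, 6 of the 10 genes did so, where 23.1% of all genes did. In these bulk libraries, more cells expressing a gene and more of its RNA in each cell cannot be told apart.

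**Figure D1:**
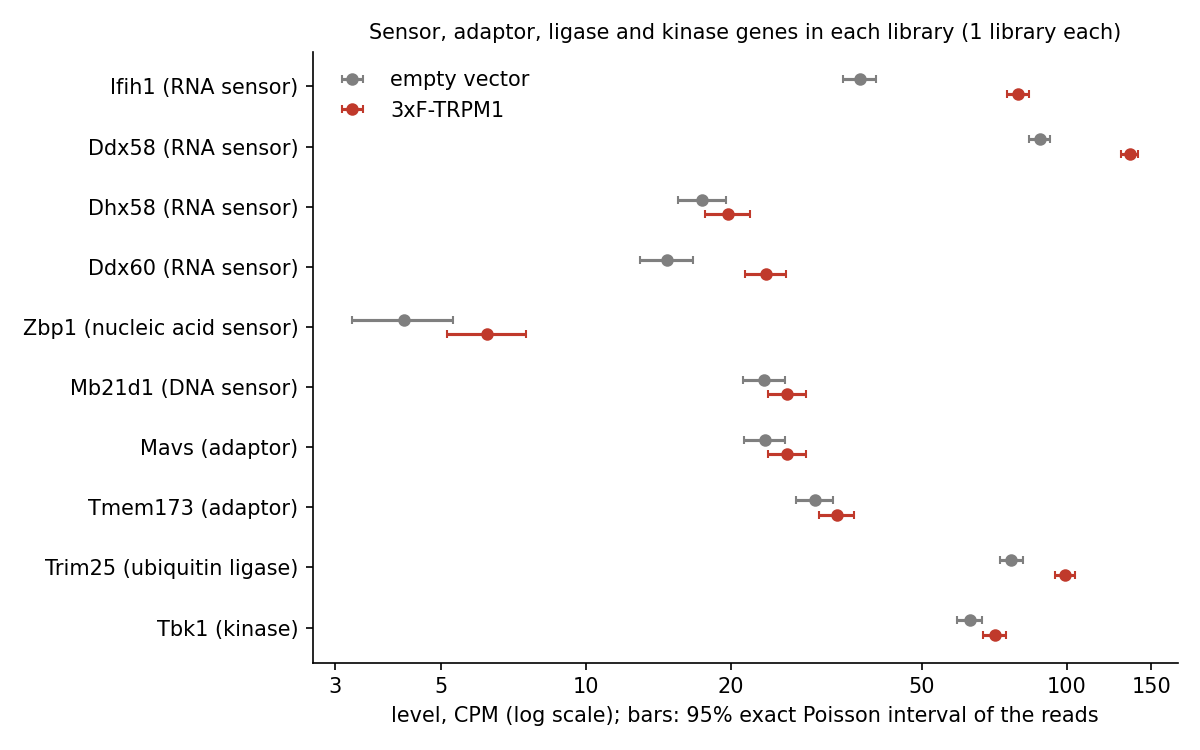
Level of each gene in CPM on a log axis, with the empty vector library in grey and the 3xF-TRPM1 library in red; bars are 95% exact Poisson intervals of the reads and there is 1 library per group. The points are far apart for Ifih1, at 37.1 and 79.4 CPM, and the bars overlap for Dhx58, Zbp1, Mb21d1, Mavs and Tmem173.

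Ifih1 (ENSMUSG00000026896), which encodes MDA5, the sensor of long RNA duplexes, had the largest change. It spans bases 62595798 to 62646255 of chromosome 2 of GRCm38, on the minus strand. The empty vector library gave 37.1 CPM (621 reads), and the 3xF-TRPM1 library 79.4 CPM (1400 reads). The level thus stood 2.12-fold higher, so that its log2 fold change came to 1.09 (95% counting interval 0.96 to 1.23), and the whole interval lay above 1.5-fold. Of the 13281 genes, 99.3% had a lower fold change. Ddx58 (ENSMUSG00000040296), which encodes RIG-I, the sensor of short duplexes with a triphosphate end, was the most abundant of the RNA sensors. It spans bases 40203773 to 40239828 of chromosome 4 and gave 87.9 CPM (1470 reads) with the empty vector against 135 CPM (2387 reads) with 3xF-TRPM1. Its log2 fold change was 0.62 (95% counting interval 0.53 to 0.72), an interval that includes 1.5-fold. Scaling to the total count of listed reads put Ddx58 at 0.57, under the 1.5-fold threshold, and left 2 genes higher.

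Ddx60 (ENSMUSG00000037921), an interferon-inducible helicase with antiviral activity, was at lower levels. It spans bases 61928087 to 62038244 of chromosome 8 and gave 14.7 CPM (246 reads) with the empty vector against 23.6 CPM (417 reads) with 3xF-TRPM1, so that its log2 fold change came to 0.67 (95% counting interval 0.45 to 0.92). Its interval overlaps that of Ddx58. Dhx58 had a smaller change than both. This gene (ENSMUSG00000017830) encodes LGP2, a relative of RIG-I and MDA5 that lacks their signalling domains and modulates them, and it spans bases 100694884 to 100704271 of chromosome 11. Dhx58 gave 17.5 CPM (292 reads) without against 19.7 CPM (348 reads) with 3xF-TRPM1, and its log2 fold change was 0.17 (95% counting interval -0.05 to 0.41). A difference between the libraries was not detectable at this depth. The antisense gene Dhx58os covers 141 of its 3272 exon bases, and reads of the opposite strand may be among those counted. Zbp1 (ENSMUSG00000027514), which binds Z-form nucleic acids and engages the kinase RIPK3, was the lowest gene of the group. It spans bases 173206612 to 173218923 of chromosome 2 and gave 4.18 CPM (70 reads) without against 6.24 CPM (110 reads) with 3xF-TRPM1. Its log2 fold change of 0.52 fell short of 1.5-fold, with a wide counting interval from 0.13 to 1.03 that lay above no change.

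**Figure D2:**
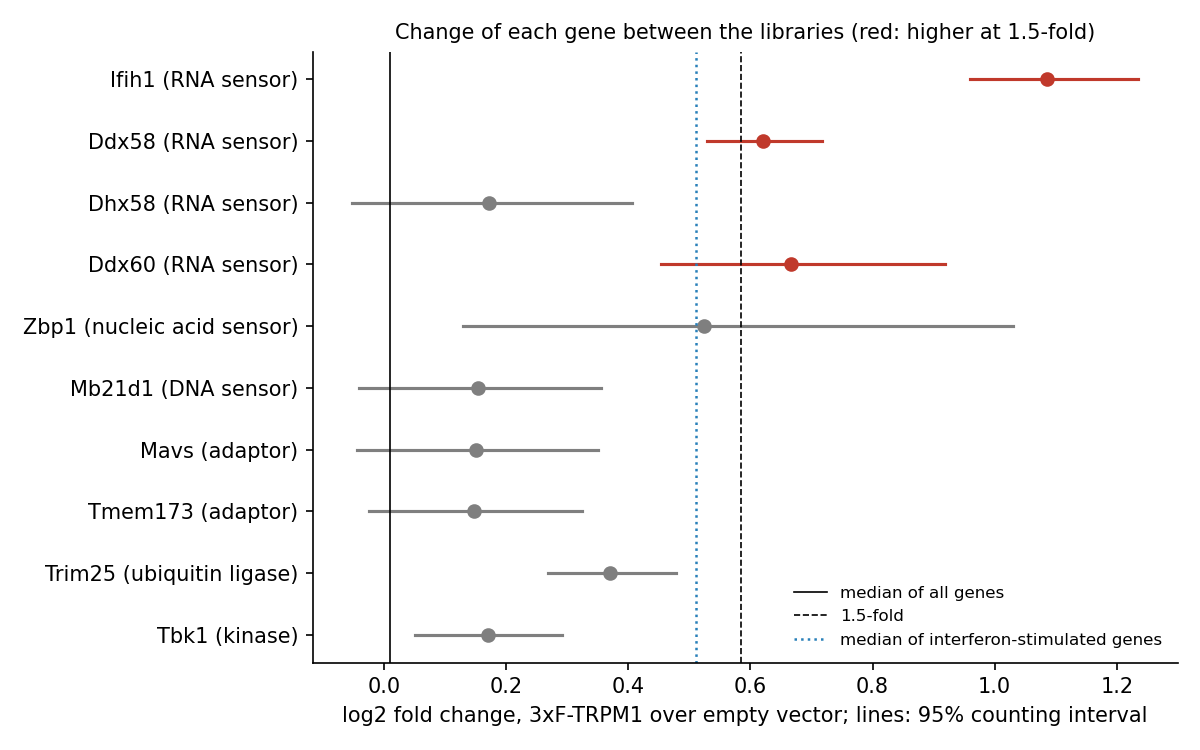
Log2 fold change of each gene, 3xF-TRPM1 over empty vector, with its 95% counting interval; red marks genes higher at 1.5-fold, and the vertical lines are the median of all genes (0.0093), 1.5-fold (dashed) and the median of the interferon-stimulated genes (0.51, dotted). Ifih1 at 1.09 stands apart, and Dhx58, Mb21d1, Mavs, Tmem173 and Tbk1 lie between 0.15 and 0.17.

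The promoter windows of the 3 higher genes are shown because each holds the core of the ISRE. RefSeq promoters on GRCm38.p6, from 250 bases before to 50 bases after a transcript start, were matched for 7 of the 10 genes. Those of Dhx58, Zbp1 and Tmem173 were not analysed here, so whether they hold the motif is not known. The motif searched was GAAANNGAAA on both strands. In the sequences below, written 5′ to 3′ along the gene, capitals mark each match.
Ifih1, chr2:62646206-62646505, minus strand: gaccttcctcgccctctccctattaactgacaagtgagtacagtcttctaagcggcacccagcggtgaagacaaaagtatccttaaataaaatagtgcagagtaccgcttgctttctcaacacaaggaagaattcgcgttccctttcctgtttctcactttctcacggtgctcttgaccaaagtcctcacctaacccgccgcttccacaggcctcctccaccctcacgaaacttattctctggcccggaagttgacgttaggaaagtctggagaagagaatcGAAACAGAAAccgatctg
Ddx58, chr4:40239776-40240075, minus strand: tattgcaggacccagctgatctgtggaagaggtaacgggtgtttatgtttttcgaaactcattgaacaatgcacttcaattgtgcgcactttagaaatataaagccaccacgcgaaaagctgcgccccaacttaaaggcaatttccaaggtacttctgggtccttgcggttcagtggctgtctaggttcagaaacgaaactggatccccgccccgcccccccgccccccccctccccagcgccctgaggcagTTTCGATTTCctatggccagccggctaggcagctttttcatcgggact
Ddx60, chr8:61927837-61928136, plus strand: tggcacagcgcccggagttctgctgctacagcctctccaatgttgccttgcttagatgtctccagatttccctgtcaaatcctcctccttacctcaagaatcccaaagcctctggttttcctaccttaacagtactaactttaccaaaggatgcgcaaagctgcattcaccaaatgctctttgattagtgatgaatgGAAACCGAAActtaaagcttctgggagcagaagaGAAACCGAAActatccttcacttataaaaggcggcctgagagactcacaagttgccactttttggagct

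The match in the Ifih1 window begins 32 bases after the transcript start and reads GAAACAGAAA. That of Ddx58 begins 2 bases after the start and reads TTTCGATTTC on the printed strand. Ddx60 has 2 matches, both GAAACCGAAA, which begin 53 and 19 bases before the start. The windows of Mb21d1 (listed by RefSeq as Cgas), Mavs, Trim25 and Tbk1 hold no match, which says only that these letters are not in those 300 bases. The motif is in 3.44% of all 32851 promoters, and in 23 of 62 promoters of the interferon-stimulated genes, or 37.1%. The core of the other interferon element, GAS, searched as TTCNNNGAA, has 0 matches in the 7 windows, so no match of either motif overlaps one of the other here. GAS is in 8.30% of all promoters and in 12 of 62 promoters of the interferon-stimulated genes, or 19.4%. With only 7 windows, the lack of a match says little about GAS. A match is a description of the sequence, and binding was not measured.

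**Figure D3:**
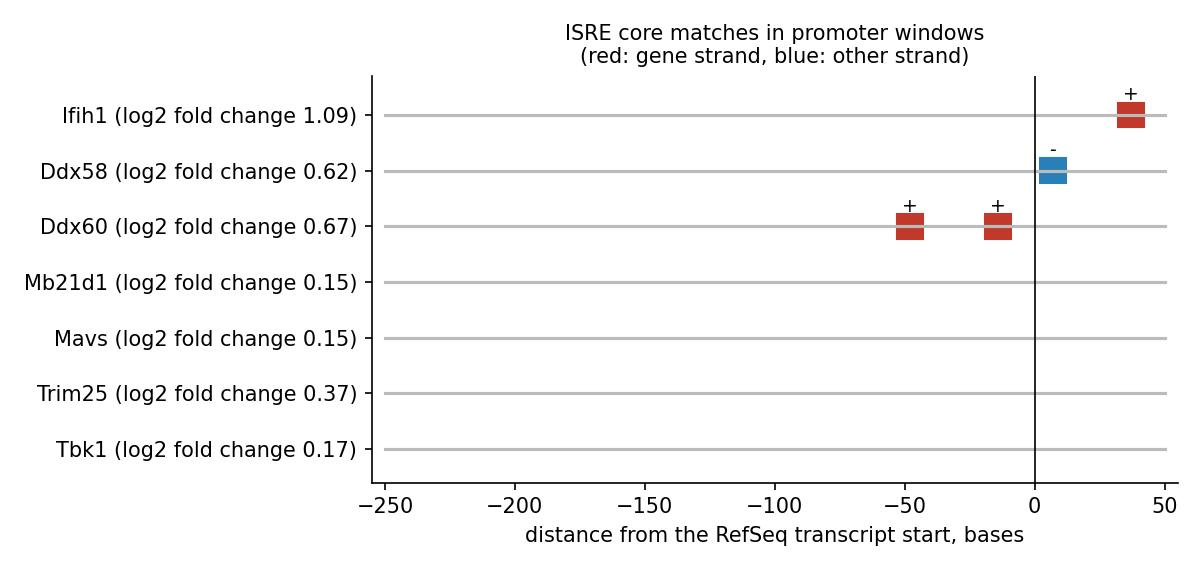
Matches to the ISRE core, GAAANNGAAA, in the promoter windows of the 7 genes with a RefSeq sequence, against distance from the transcript start in bases; red boxes lie on the strand of the gene and blue on the other. Ifih1, Ddx58 and Ddx60 hold 1, 1 and 2 matches and the other windows hold 0. Dhx58, Zbp1 and Tmem173 have no window here.

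The DNA-sensing arm showed small differences. Mb21d1 (ENSMUSG00000032344), which encodes cGAS and spans bases 78430526 to 78443237 of chromosome 9, gave 23.5 CPM (393 reads) with the empty vector against 26.2 CPM (462 reads) with 3xF-TRPM1. Its log2 fold change was 0.15 (95% counting interval -0.04 to 0.35). The antisense gene Gm8093 covers 201 of its 4126 exon bases, and strand was not known to be used in counting. Tmem173 (ENSMUSG00000024349), which encodes STING, gave 29.9 CPM (501 reads) without against 33.2 CPM (586 reads) with 3xF-TRPM1, so that its log2 fold change came to 0.15 (95% counting interval -0.02 to 0.32). For neither gene was a difference detectable at this depth, and the upper ends of the intervals lay under 1.5-fold. The level of Mb21d1 over that of Tmem173, per length, was 0.521 in empty vector cells (95% counting interval 0.455 to 0.596) and 0.524 in 3xF-TRPM1 cells (0.463 to 0.593).

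Mavs (ENSMUSG00000037523), the adaptor of RIG-I and MDA5, was above Mb21d1 in level per length in both libraries. It spans bases 131234063 to 131248025 of chromosome 2 and gave 23.6 CPM (394 reads) without against 26.2 CPM (462 reads) with 3xF-TRPM1, so that its log2 fold change came to 0.15 (95% counting interval -0.04 to 0.35). Tbk1 (ENSMUSG00000020115), the kinase shared by both adaptors, spans bases 121546455 to 121586787 of chromosome 10. It gave 62.9 CPM (1052 reads) without against 70.8 CPM (1249 reads) with 3xF-TRPM1, and its log2 fold change of 0.17 had an interval just above no change, from 0.05 to 0.29. Trim25 (ENSMUSG00000000275), a ubiquitin ligase that modifies RIG-I in human cells, spans bases 88999376 to 89020293 of chromosome 11 and stood between these genes and the higher sensors. It gave 76.7 CPM (1283 reads) without against 99.3 CPM (1752 reads) with 3xF-TRPM1, so that its log2 fold change came to 0.37 (95% counting interval 0.27 to 0.48), and 90.1% of all genes had a lower fold change.

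The order of the genes by level per length, in CPM per kilobase of exon, differed between the libraries. In empty vector cells Tbk1 was first at 16.1 CPM per kilobase, followed by Trim25 at 13.3, Ddx58 at 12.5, Tmem173 at 10.9, Mavs at 7.04, Mb21d1 at 5.69, Dhx58 at 5.33, Ifih1 at 4.55, Ddx60 at 1.69 and Zbp1 at 1.19 CPM per kilobase. Of these neighbours, Trim25 and Ddx58, and Mb21d1 and Dhx58, did not differ beyond counting error. In 3xF-TRPM1 cells Ddx58 was first at 19.2 CPM per kilobase, and neither it and Tbk1 at 18.1 nor Tbk1 and Trim25 at 17.3 differed beyond counting error. Ifih1 was at 9.72 CPM per kilobase, below Tmem173 at 12.1 and above Mavs at 7.83, Mb21d1 at 6.35 and Dhx58 at 6.03. The last pair again did not differ beyond counting error. Ddx60 at 2.72 and Zbp1 at 1.77 CPM per kilobase kept the lowest places.

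Ratios between the genes show the same shift and do not depend on how the libraries were scaled. The level of Ifih1 per length was 0.646 times that of Mavs in empty vector cells (95% counting interval 0.568 to 0.734) and 1.24 times in 3xF-TRPM1 cells (1.12 to 1.38). The level of Ddx58 per length was 2.74 times that of Ifih1 in empty vector cells (2.49 to 3.02) and 1.97 times in 3xF-TRPM1 cells (1.85 to 2.11). Dhx58 was at 1.17 times the level of Ifih1 in empty vector cells (1.02 to 1.35) and at 0.620 times in 3xF-TRPM1 cells (0.550 to 0.698). Of the summed level of Ifih1, Ddx58 and Dhx58, Ifih1 held 20.3% and 27.8%, Ddx58 55.8% and 54.9%, and Dhx58 23.9% and 17.3%. Tbk1 was at 2.28 times the level of Mavs per length in empty vector cells (2.03 to 2.57) and at 2.31 times in 3xF-TRPM1 cells (2.08 to 2.58).

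The changes of the genes were also set against each other in all 45 pairs, as the log2 ratio of their fold changes in reads. Each ratio has an approximate 95% interval of the reads. Here 0.5 CPM was not added, so the ratios can depart from differences of the fold changes given above. In 23 pairs the interval excluded 0. Ifih1 changed more than each of the other 9 genes, with log2 ratios from 0.41 against Ddx60 (0.15 to 0.68) to 0.95 against Tmem173 (0.73 to 1.17). Against Ddx58 the ratio was 0.47 (0.31 to 0.64). Ddx58 and Ddx60 differed by 0.062 (-0.18 to 0.31), which is within counting error. Dhx58 and Tmem173 differed by 0.027 (-0.26 to 0.31), also within counting error. These intervals do not cover differences between cultures.

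Genes that respond to type I interferon were set beside the sensors. Of 71 listed interferon-stimulated genes other than the sensors, 63 had values. Of these, 24 (38.1%) were higher at 1.5-fold and 0 were lower, with a median log2 fold change of 0.51. Ifih1 lay among the largest of these changes, since 8 of the 63 genes exceeded it. Ddx58 and Ddx60 were each exceeded by 23, Zbp1 by 28, Trim25 by 47, Dhx58 by 54, Tbk1 by 55, and Mavs, Tmem173 and Mb21d1 by 57. Genes near Ifih1 were Ifit1, which encodes a protein that binds foreign RNA, at 55.2 and 113 CPM (log2 fold change 1.02, 95% counting interval 0.92 to 1.14) and the ubiquitin ligase gene Trim30a at 24.0 and 51.6 CPM (1.09). Above it stood Ifi27l2a at 1.58, Ifit3b at 1.29, Gbp3 at 1.24 and Ifit3 at 1.23 on the log2 scale. Ifit3 and Ifit3b are nearly identical and may share reads. Isg15, a ubiquitin-like modifier, gave 18.5 and 33.8 CPM, or 0.86 on the log2 scale.

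Of the genes of these factors, Stat2 was at 61.2 and 110.0 CPM, so that its log2 fold change came to 0.84 (95% counting interval 0.74 to 0.96). Irf9 followed at 57.3 and 85.9 CPM with 0.58, just short of 1.5-fold. Stat2 and Irf9 thus lay between Trim25 and Ifih1 in their change. The receptor genes Ifnar1 (133 and 144 CPM, log2 fold change 0.12) and Ifnar2 (68.5 and 75.3 CPM, 0.14) were close to Mavs and Tbk1. Of 18 listed interferons, early cytokines and receptors, 5 had values, and 0 were higher and 0 lower, although Ccl5 (3.11 and 1.93 CPM, -0.57) counted as lower under total count scaling and with a pseudocount of 0.1. Cxcl10, a chemokine induced by IRF3 and by interferon, was at 50.9 and 52.4 CPM (log2 fold change 0.042, 95% counting interval -0.09 to 0.18). Interferon-beta itself was not analysed here.

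**Figure D4:**
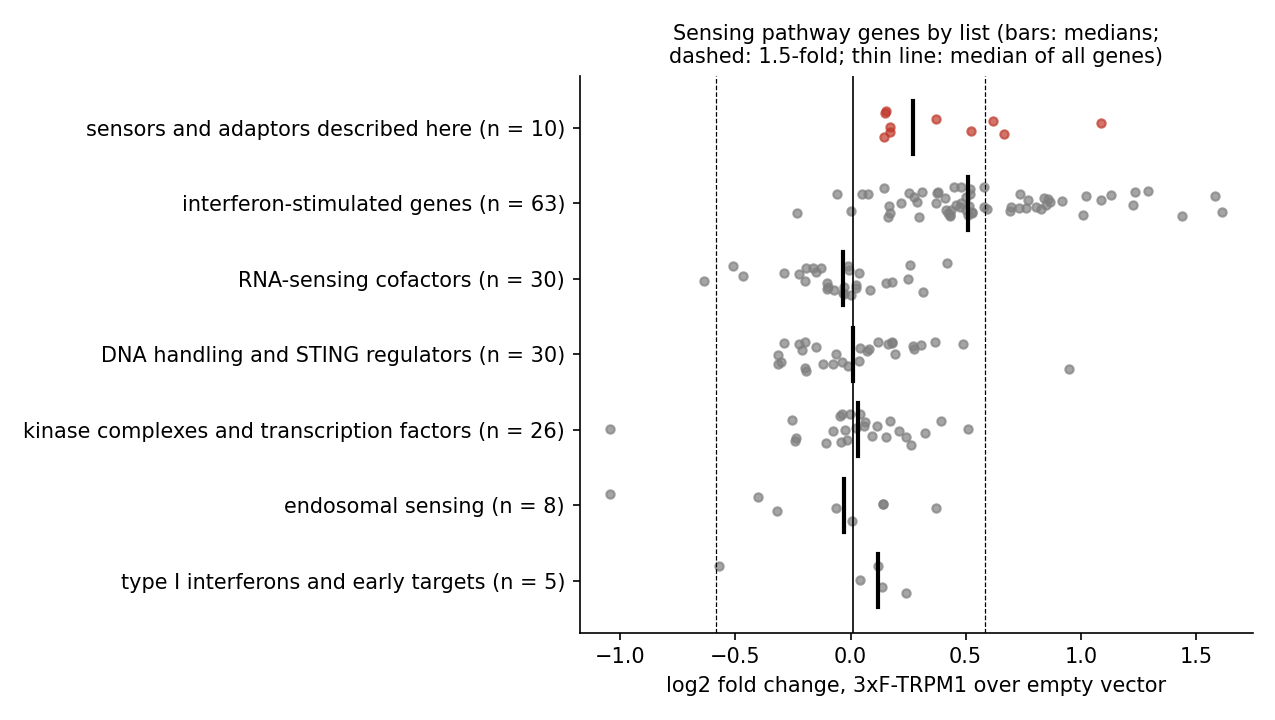
Log2 fold change, 3xF-TRPM1 over empty vector, of each gene with a value in 7 lists, with a black bar at the median of each; dashed lines mark 1.5-fold and the thin line the median of all genes. The 10 sensors and adaptors (red) have a median of 0.27, the lists of cofactors, kinases and endosomal genes have medians from -0.03 to 0.03, and the interferon-stimulated genes lie furthest right, with a median of 0.51.

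The other components of the sensing pathways were close to all genes. Of 30 cofactors and regulators of RIG-I, MDA5 and MAVS, 0 were higher and 1 was lower, with a median log2 fold change of -0.03. The lower gene was Casp12, which encodes an inflammatory caspase linked to RIG-I signalling in mice, with 1590 and 1076 reads (log2 fold change -0.64, 95% counting interval -0.75 to -0.53). Riok3, a kinase that acts on MDA5, had a log2 fold change of 0.31, the ubiquitin ligase gene Mex3c one of 0.26, and Tkfc, an inhibitor of MDA5, one of -0.29. Of 30 genes of DNA handling and STING regulation with values, 1 was higher and 0 were lower, with a median of 0.012. Ifi203, an interferon-inducible member of the AIM2-like receptor family, was the higher gene, at 9.09 and 18.0 CPM (0.95, 95% counting interval 0.71 to 1.28). Genes of that family resemble each other and may share reads. Enpp1, which degrades the product of cGAS, was at 47.6 and 67.0 CPM (0.49), Ifi202b, an inhibitor of AIM2, at 72.1 and 93.2 CPM (0.37) and Insig1, a sterol-regulated protein of the endoplasmic reticulum, at 62.3 and 49.9 CPM (-0.32).

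Downstream of the adaptors, 26 genes of the TBK1 and IKK kinase modules, the TRAF adaptors and the transcription factors had values. Their median log2 fold change was 0.032, with 0 higher and 1 lower. The lower gene was Ripk3, the kinase engaged by ZBP1, at 15.2 CPM (255 reads) and 7.14 CPM (126 reads), so that its log2 fold change came to -1.04 (95% counting interval -1.41 to -0.78). Zbp1 and Ripk3 thus differed in opposite directions between the libraries. Irf3, the substrate of TBK1, was at 23.7 CPM in each library (397 and 418 reads; log2 fold change -0.002, 95% counting interval -0.20 to 0.20). Irf7, its interferon-inducible relative, was at 23.7 and 34.0 CPM (0.51, 0.33 to 0.71). Ikbke, the closest relative of Tbk1, was at 8.61 and 7.14 CPM (-0.25, -0.63 to 0.09), and Traf3, which links MAVS to TBK1, at 41.1 and 34.9 CPM (-0.24, -0.40 to -0.08). Traf5 had a log2 fold change of 0.39 and Sike1, an inhibitor of the kinases, one of 0.32.

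Endosomal sensing, the route by Toll-like receptors, gave 8 genes with values and a median of -0.03. Of these 0 were higher and 1 was lower. That gene was Tlr7, a receptor of single-stranded RNA, at 2.75 and 1.08 CPM, near the lower limit of the values. Unc93b1, which carries these receptors to endosomes, was at 20.3 and 26.4 CPM (log2 fold change 0.37, 95% counting interval 0.17 to 0.59). Irak1, a kinase of receptor signalling, was at 83.9 and 63.5 CPM (-0.40), Cnpy3, a chaperone of the receptors, at 53.4 and 42.6 CPM (-0.32) and the adaptor gene Ticam1 at 26.4 and 29.2 CPM (0.14).

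Ddx58, Ddx60 and Dhx58 belong by name to the Ddx and Dhx genes, most of which encode RNA helicases of splicing, ribosome assembly and translation. The other 49 Ddx and Dhx genes with values had a median log2 fold change of -0.14. Below 0 were 37 of the 49, where 6406 of all 13281 genes were. Of these 49, 0 were higher and 2 were lower at 1.5-fold, namely Ddx28 at 7.23 and 4.42 CPM (-0.65) and Ddx25 at 5.08 and 2.21 CPM (-1.04). The highest of the 49 was Ddx24 at 0.20, so Ddx58 at 0.62 and Ddx60 at 0.67 lay above all of them. Dhx58 at 0.17 lay near the top of their range, with only Ddx24 of the 49 above it. Trim25 belongs to the Trim genes, of which 39 others had values, with 2 higher, 0 lower and a median of 0.037. The higher ones were Trim30d at 12.7 and 31.2 CPM (1.26) and Trim30a, which resemble each other and may share reads. Trim68 was at 4.07 and 6.24 CPM (0.56).

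**Figure D5:**
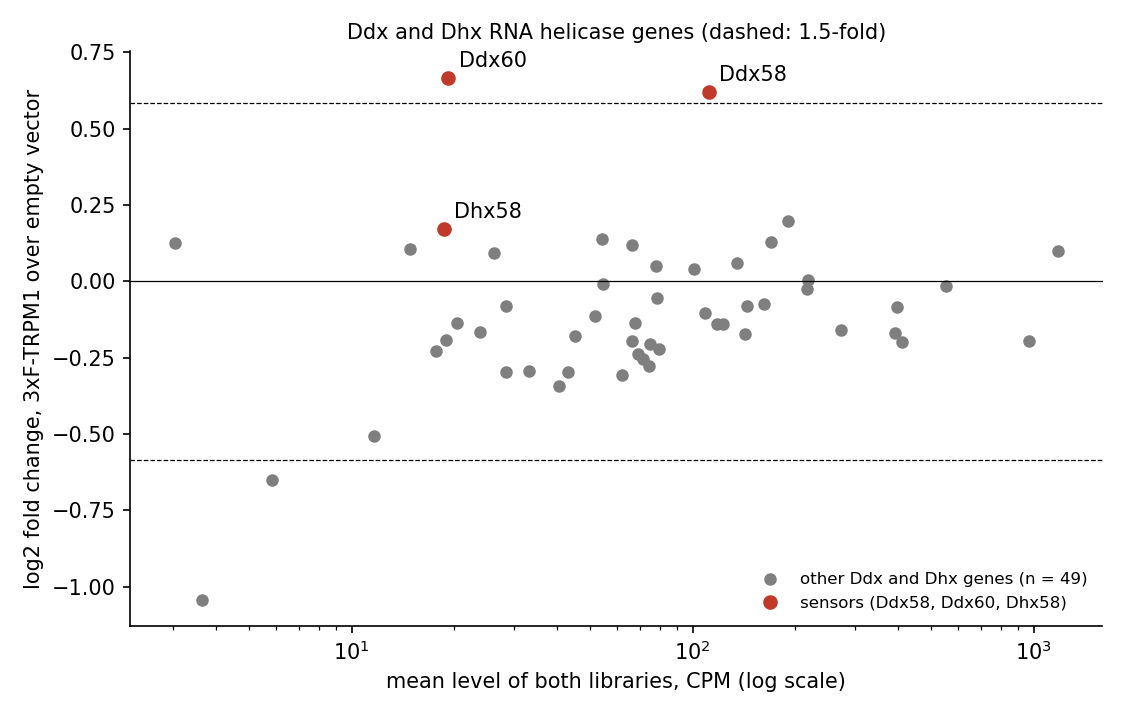
Log2 fold change of the Ddx and Dhx genes, 3xF-TRPM1 over empty vector, against their mean level in CPM on a log axis, with dashed lines at 1.5-fold. The sensors Ddx58 (0.62) and Ddx60 (0.67) lie above the upper dashed line. Dhx58 (0.17) lies near the top of the range of the other 49 genes, and 37 of those 49 lie below 0.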

How the data were processed

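RNA from 1 library of empty vector and 1 library of 3xF-TRPM1 661W cells was analysed. By the methods, the authors used HISAT2 2.1.0 for alignment (GRCm38), featureCounts 2.0.0 for gene counts, and then edgeR 3.28.1 and DESeq 1.40.0. Neither annotation release nor strand setting was given in the sources used here. The authors deposited CPM values, and the step that made them is not named. The methods speak of FPKM, but the value of 1 read was the same for all genes whatever their length, as in CPM. The log2 fold changes and p-values that the authors deposited hold their own comparison and were not used, nor were their gene set results; 2 columns that repeat the CPM values were left out. Levels per kilobase used the gene lengths deposited by the authors.

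Every CPM value was a whole multiple, within 0.01, of 0.0598 CPM (empty vector) or 0.0567 CPM (3xF-TRPM1), which gave the reads. The lowest values were 17 and 18 reads. Intervals are exact Clopper-Pearson for fold changes and level ratios, exact Poisson for levels, and a normal approximation for ratios of fold changes. They cover counting error only and take the reads as independent. Reads without molecular identifiers are not independent molecules, so the intervals may be too narrow even for counting error. The filter, a mean of at least 1 CPM, removed 0 genes. The calls were tested on simulated reads that held counting error only, which cannot show how they behave with differences between cultures. Coordinates are from GENCODE M21 (GRCm38), which matched 13275 identifiers; 20 symbols turned into dates were restored from it.

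The genes and lists were chosen with earlier results of these data known. Named are the 10 genes, up to 4 genes per pathway list and 3 per family with the largest change at a mean of at least 5 CPM, a set of interferon and kinase genes, and single genes that make up a count, chosen after their values were seen. A gene of the rule is not reported here. Alternatives were 2 other scalings, pseudocounts of 0.1 and 1, a filter at a mean of 5 CPM or none, a 2-fold threshold and the interval alone. The work ran in Python 3.11.15 (with scipy 1.17.1, numpy 2.4.6, matplotlib 3.10.9 and pandas 2.3.3).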

Additional observations from a re-analysis of the deposited data

How the results depend on the processing

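All 10 genes kept a log2 fold change above 0 under both other scalings, the only alternatives that could turn a sign. Ifih1 ranged from 1.04 to 1.09 over the scalings and pseudocounts and also passed 2-fold. Ddx60 fell short only of 2-fold, and Ddx58 of 2-fold and of 1.5-fold under total count scaling (0.57). That scaling moved the median of all genes to -0.036. At 2-fold, 1 of the 10 genes was higher (3 at 1.5-fold), with 115 of all genes higher and 117 lower (519 and 408 at 1.5-fold) and 10 interferon-stimulated genes higher (24 at 1.5-fold). With the counting interval alone, 6 of the 10 genes, 51 interferon-stimulated genes and 3070 of all genes were higher, and 2615 of all genes were lower. The 3 genes this added were Zbp1, Trim25 and Tbk1. A filter at a mean of at least 5 CPM removed 2424 genes and left 10857, of which 351 were higher and 217 were lower. With 1 library per group, nothing here covers a difference between cultures. No paired analysis was possible because each group has 1 library.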

Other observations

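The ISRE core was also looked for in those genes with values that had a RefSeq promoter window, which were not all genes with values. This search was decided after the sensor promoters had been read. Of 367 genes whose window holds GAAANNGAAA, 39 (10.6%) were higher at 1.5-fold and 8 were lower, with a median log2 fold change of 0.049. Of 9418 genes without it, 276 (2.93%) were higher and 284 were lower, with a median of 0.0033. Without the sensors and the listed interferon-stimulated genes, 25 of 342 genes with the motif (7.31%) and 269 of 9386 without it (2.87%) were higher. The list does not hold every interferon-inducible gene, Ifi203 for one, so such genes may remain in these counts. For the GAS core, TTCNNNGAA, 3.84% of 807 genes with it and 3.16% of 8978 without it were higher. No test was made of these shares, and genes are not replicates.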
